A study of Mus musculus with 24 samples.

Results

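The regions described here are the sites of KMT2D with H3K4me3 at either end of genes, in a mouse melanoma line that is wild type for Kmt2d (WT). A site was taken when the summit of a WT KMT2D peak lay within 1 kb of an end of a RefSeq protein-coding gene and the peak overlapped a WT H3K4me3 peak by at least 1 bp. Of 6434 distinct WT KMT2D peaks, 1799 had a summit within 1 kb of a gene end, and 1469 of these overlapped H3K4me3, a mark that lay on 34.7% of all KMT2D peaks. The 1469 sites named 1782 genes, with 1128 sites naming 1 gene, 335 naming 2 and 6 naming 3. They overlapped 1526 H3K4me3 peaks, of which 1240 had a summit of their own at a gene end. The sites were thus chosen by their KMT2D and WT H3K4me3 calls and by the distance to a gene end, and those values are given as descriptions.

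KMT2D is a methyltransferase of histone H3 lysine 4 that works in a COMPASS-type complex. It is best known for placing the monomethyl mark at enhancers. The trimethyl mark H3K4me3, found at active and poised promoters, is written mainly by the related SETD1A, SETD1B, KMT2A and KMT2B complexes, and Menin works with KMT2A and KMT2B. UTX (KDM6A), which removes methyl groups from histone H3 lysine 27, is a subunit of the KMT2C and KMT2D complexes. The SWI/SNF complexes slide and evict nucleosomes: SMARCC1 belongs to their shared core, ARID1A to canonical BAF, ARID2 and PBRM1 to PBAF, and BRD9 to non-canonical BAF. TFAP2A and TFAP2B are neural crest transcription factors that act in melanocytes, and SOX10 is the factor that specifies that lineage.

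The assay was CUT&RUN, which cuts and collects the DNA around an antibody-marked protein or histone mark. The WT line was 971 and the mutant line, which carries a Kmt2d mutation whose allele the labels do not give, was 493. Both were mouse melanoma cells grown in DMEM/F12 with serum and antibiotics, with no treatment named. Peak lists of 22 libraries were used, 10 WT and 12 mutant: 9 targets (H3K4me3, UTX, ARID1A, Menin, TFAP2A, SMARCC1, ARID2, PBRM1 and BRD9) in both lines, KMT2D in the WT line, and TFAP2B and SOX10 with the antibodies labelled T and U in the mutant line. A rabbit IgG library of each line had no peak list and was not analysed here. There was 1 library per line and target, so no difference below has a replicate check and no test was made. The labels do not say whether the libraries of a line came from separate cultures. Each genotype was a single line, so effects of line and of genotype cannot be told apart. Shares have 95% Wilson intervals and their unweighted differences Newcombe intervals. Reweighted or matched differences have normal-approximation intervals from the binomial standard error. All of these reflect counting error alone. The fold enrichment of a peak, a ratio of its summit to local background, was computed by the authors, and values are set against each other only inside 1 list.

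Of 6 melanocyte markers (Pmel, Mlana, Tyr, Dct, Mitf, Sox10), Pmel and Mitf had a WT H3K4me3 peak with any part of it within 1 kb of a gene end, and Sox10 joined them in the mutant line. Mlana, Tyr and Dct had none in either line. By the same measure, fibroblast markers with the mark numbered 4 of 10 in each line (Col1a1, Col3a1, Pdgfra and Pdgfrb), keratinocyte markers 2 of 8, blood cell markers 1 of 8 and endothelial markers 1 of 6. Where the WT peak summit had to lie within 1 kb, the rule used for gene-end H3K4me3 peaks below, fibroblast markers numbered 2 and blood cell markers 0. At the depth the peak caller used, reconstructed from the lists, mutant lists were called at 1.58 (UTX) to 2.37 (ARID2) times the WT depth, and the mutant SMARCC1 list at 0.394 times the WT depth. The sites carried a median of 11 of the 22 libraries (3 to 18). Sites called in at least 15 libraries numbered 58 (3.95%), against 90 (1.40%) of all KMT2D peaks.

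Promoter sequence is printed for 4 sites whose KMT2D summit fell in the promoter window. Sp1 and Gamt are among the 5 sites with the highest KMT2D fold enrichment. Daxx and Prkaca are the highest sites with neither UTX nor ARID1A whose summit fell in the window. Each line gives the 250 bases before the annotated start site from the RefSeq promoter table (GRCm38.p6, the assembly of mm10), 5′ to 3′ on the gene's strand. Capitals mark matches on either strand to the GC box of SP and KLF factors (GGGCGG), the CCAAT box of NF-Y (CCAAT), TFAP2 (GCCNNNGGC), ETS (CCGGAAG) or the E-box of MITF and USF (CACGTG). The windows are chr15:102406066-102406315 on the plus strand for Sp1, chr10:80261013-80261262 on the minus strand for Gamt, chr17:33909195-33909444 on the plus strand for Daxx and chr8:83972728-83972977 on the plus strand for Prkaca.
Sp1: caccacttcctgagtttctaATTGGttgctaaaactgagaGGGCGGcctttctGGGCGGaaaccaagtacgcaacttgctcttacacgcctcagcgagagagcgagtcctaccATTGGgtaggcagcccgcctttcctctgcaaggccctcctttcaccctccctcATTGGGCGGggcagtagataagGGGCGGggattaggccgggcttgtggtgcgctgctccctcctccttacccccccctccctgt
Gamt: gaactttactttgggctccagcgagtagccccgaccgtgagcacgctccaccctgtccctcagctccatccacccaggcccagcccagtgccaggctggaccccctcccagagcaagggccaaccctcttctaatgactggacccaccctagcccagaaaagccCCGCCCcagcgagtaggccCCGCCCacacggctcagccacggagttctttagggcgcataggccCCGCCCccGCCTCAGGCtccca
Daxx: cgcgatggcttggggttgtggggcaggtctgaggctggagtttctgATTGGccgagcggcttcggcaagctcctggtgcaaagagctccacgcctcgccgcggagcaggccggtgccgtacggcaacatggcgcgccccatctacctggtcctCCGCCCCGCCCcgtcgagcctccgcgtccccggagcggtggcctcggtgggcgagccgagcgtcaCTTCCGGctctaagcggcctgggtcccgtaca
Prkaca: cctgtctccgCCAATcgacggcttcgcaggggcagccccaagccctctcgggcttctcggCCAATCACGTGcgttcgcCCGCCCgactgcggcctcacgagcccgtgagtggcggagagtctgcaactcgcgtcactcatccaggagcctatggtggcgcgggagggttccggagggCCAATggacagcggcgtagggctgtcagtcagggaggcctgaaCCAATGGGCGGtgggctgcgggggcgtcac
Sp1, which encodes the GC box factor itself, had 4 GC boxes and 3 CCAAT boxes, and the third CCAAT box overlaps a GC box. Gamt, the gene of a creatine synthesis enzyme, had 3 GC boxes and a TFAP2 match. Daxx, which encodes a histone H3.3 chaperone, had 2 GC boxes that overlap each other, a CCAAT box and an ETS match. Prkaca, which encodes the catalytic subunit of protein kinase A, had 2 GC boxes, 4 CCAAT boxes and an E-box, and 1 CCAAT box adjoins the E-box and 1 a GC box. The KMT2D summits lay 248, 191, 94 and 143 bp before the start of Sp1, Gamt, Daxx and Prkaca. Only the Daxx summit lay within a marked match, a GC box. A match is a description of the letters and not a bound site.

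KMT2D at the 1469 sites had a fold enrichment from 3.50 to 210 with a median of 11.4. The median was 9.86 at the 330 gene-end KMT2D peaks without H3K4me3 and 8.60 at the 3285 KMT2D peaks beyond 5 kb of any gene end without H3K4me3, called distal sites here. The summits of the sites held a median of 17 fragments (4 to 299). Site width ran from 180 to 2457 bp with a median of 379 bp, against 313 bp and 303 bp at gene-end peaks without H3K4me3 and distal sites, and a wider region can overlap a partner peak more easily. Sites just inside the 1 kb limit included those of Limk1 (993 bp) and Ccdc159 (998 bp). The first outside were those of Slc11a1 (1004 bp), Gpd1 (1007 bp) and Pkn3 (1010 bp). Of the sites, 863 (58.7%) lay wholly inside an H3K4me3 peak, while 214 (64.8%) of the 330 gene-end KMT2D peaks without H3K4me3 had such a peak less than 1 kb away, so the overlap rule split neighbouring cases.

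The sites lay mainly at transcription starts. A transcription start was the nearest annotated end for 1254 sites (85.4%), a transcript's far end for 21 (1.43%), and for 194 (13.2%) the table gave no strand. At gene-end H3K4me3 peaks without KMT2D a start was nearest for 79.7%, with no strand for 18.9%. At gene-end KMT2D peaks without H3K4me3 these shares were 61.5% and 19.4%. Paired starts of genes on opposite strands lay at 211 of the 1254 start sites (16.8%, interval 14.9–19.0%). The same arrangement was found at 161 of 1063 H3K4me3 peaks that carried a site (15.1%, 13.1–17.4%) and at 607 of 6012 gene-end H3K4me3 peaks without KMT2D (10.1%, 9.36–10.9%), so shared promoters were more frequent with KMT2D; this was not matched for H3K4me3 width. PBRM1 was called at 23 of the 211 paired starts (10.9%, 7.37–15.8%) and 37 of the other 1043 (3.55%, 2.58–4.85%), and mutant PBRM1 at 8.06% and 3.64%. UTX was at 83.9% and 82.8%. Among the 10 sites with the highest KMT2D, those of Ubxn6 with Hdgfl2, Cactin with Pip5k1c, Mylpf with Tbc1d10b, Dazap1 with Gamt, Abtb1 with Podxl2 and Izumo4 with Mob3a each lay within 1 kb of an end of both genes. By chromosome, the share of gene-end H3K4me3 peaks with KMT2D was highest on chromosome 19 (20.4%, 16.4–25.2%) and chromosome 7 (19.7%, 16.8–22.9%) and lowest on X (7.66%, 5.02–11.5%), against 14.7% over all chromosomes.

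Partners in the WT line came in 3 levels at the sites. UTX overlapped 1216 sites (82.8%, 80.8–84.6%, against 88.3% of all KMT2D peaks), Menin 1189 (80.9%, 78.9–82.9%, against 37.7%), TFAP2A 1159 (78.9%, 76.7–80.9%, against 57.7%) and ARID1A 1144 (77.9%, 75.7–79.9%, against 87.7%). SMARCC1 overlapped 145 (9.87%, 8.45–11.5%, against 48.0%), or 5.56% when at least 50% of the site had to be covered. ARID2, PBRM1 and BRD9 overlapped 80 (5.45%, against 4.79%), 71 (4.83%, against 1.45%) and 26 sites (1.77%, against 1.32%), from lists of 689, 343 and 141 peaks.

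Menin and SMARCC1 set the sites apart from distal sites in opposite directions. Menin lay on 14.8% of distal sites, 66.2 points fewer (63.7–68.4), and TFAP2A on 46.3%, 32.6 points fewer (29.8–35.2). SMARCC1 lay on 69.1% of distal sites, so its share at the gene-end sites minus that at distal sites was -59.2 points (-61.3 to -56.9). ARID1A, another SWI/SNF subunit, differed far less, by -16.4 points (-18.7 to -14.2) from its 94.2% at distal sites, and UTX by -8.49 points (-10.7 to -6.38) from 91.3%. ARID1A at the gene-end sites was therefore mostly called without a SMARCC1 peak: all 145 sites with SMARCC1 had ARID1A, but 999 of the 1324 sites without SMARCC1 had it too (75.5%). The WT SMARCC1 list was shorter than that of ARID1A (11507 against 22199 peaks). SMARCC1 peaks at the sites were weak, with a median fold enrichment of 5.37 against 8.01 over their list. A site without a SMARCC1 peak is thus not shown to lack the protein. PBRM1 was also more frequent at the sites, at 4.83% of the sites and 0.152% of distal sites (difference 4.68 points, 3.68–5.90).

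Gene-end KMT2D peaks without H3K4me3 were closer to the sites than distal peaks were, with Menin as the main difference. Menin lay on 33.3% of them (47.6 points fewer than at the sites, 42.0–52.8), TFAP2A on 61.5% (17.4 points fewer, 11.9–23.1) and SMARCC1 on 22.7% (the sites minus these, -12.9 points, -17.9 to -8.36). For UTX (86.1%) and ARID1A (73.0%) the intervals of the difference included 0 (-7.17 to 1.26 and -0.163 to 10.3 points). The plot of shares by target shows the order of the 3 kinds of KMT2D site for each library.

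**Figure D1:**
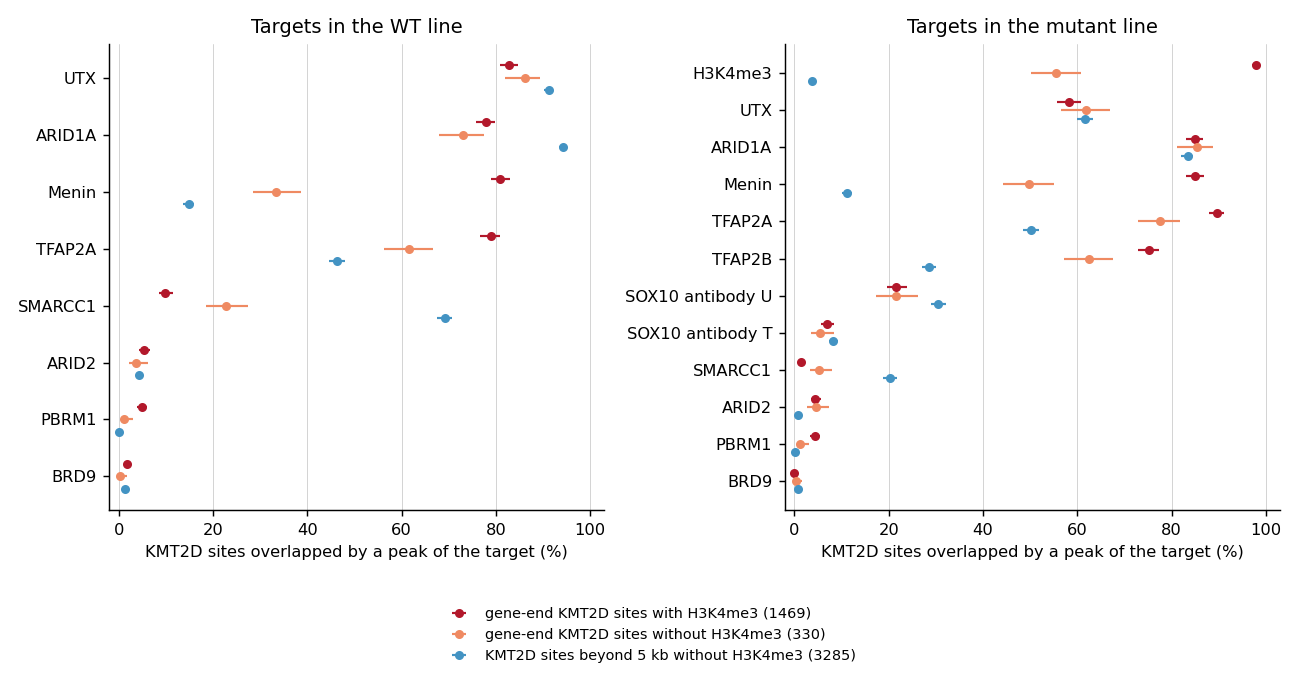
Share of KMT2D sites overlapped by a peak of each target, in the WT line (left) and the mutant line (right), for gene-end sites with H3K4me3 (red), gene-end sites without it (orange) and distal sites without it (blue). Points are shares and bars are 95% Wilson intervals for counting error; Menin falls from 80.9% to 14.8% between the red and blue points of the WT line while SMARCC1 goes from 9.87% to 69.1%.

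UTX, ARID1A, Menin and TFAP2A were most often found together. The combination of those 4 without SMARCC1 held 613 sites (41.7%), and the 4 with SMARCC1 another 113 (7.69%). Sites with UTX, ARID1A and Menin alone numbered 117 (7.96%), and 15 sites (1.02%) had none of the 5. ARID1A was found at 83.1% of sites with UTX (80.8–85.1%) and at 53% of those without (46.8–59.0%). Menin was less tied to UTX, at 81.7% (79.5–83.8%) and 77.1% (71.5–81.8%), intervals that overlap. UTX and ARID1A were both absent from 119 sites (8.10%), where the median KMT2D fold enrichment was 6.34, against 14.9 at the 1010 sites with both. Of those 119, Menin still covered 79 (66.4%) and TFAP2A 72 (60.5%). The 5 with the highest KMT2D were at Gm13288 (17.7), Daxx (15.6), Prkaca (15.6), Agfg2 (14.9) and Zfp771 (14.9). Daxx had Menin with a fold enrichment of 16.0, PBRM1 with 6.21 and TFAP2A with 8.15. Prkaca had TFAP2A with 7.59 and Menin with 6.09, and Gm13288 had TFAP2A with 9.83.

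The highest KMT2D sites were also the highest UTX sites. The Sp1 site (chr15:102405317-102406887, mm10) had a KMT2D fold enrichment of 210 from 299 fragments and a WT UTX fold enrichment of 300, the top of that whole list. Ubxn6 with Hdgfl2 (159, chr17:56078959-56079710) and Cactin with Pip5k1c (140, chr10:81320264-81321184) had WT UTX values of 270 and 228. The next 7 sites, at Mylpf, Dazap1, Arrdc2, Abtb1, Rras, Izumo4 and Ell, had KMT2D from 139 to 112 and WT UTX from 225 (Rras, a RAS-family GTPase) to 142 (Ell, a transcription elongation factor). WT H3K4me3 at the 10 sites lay on both sides of its median of 16.0 over the sites. It ran from 7.28 (Sp1) and 8.87 (Arrdc2 and Abtb1) to 25.3 (Rras) and 26.4 (Mylpf). WT Menin at the 10 sites ran from 3.95 (Ell) to 15 (Cactin), and only Sp1 (9.75) and Cactin exceeded its median of 9.22 over the sites. All 10 had ARID1A and TFAP2A in both lines, and 9 had the SOX10 antibody U in the mutant line (all but Abtb1). In the highest of 4 equal classes of KMT2D fold enrichment, ARID1A lay on 95.4% (WT) and 97.5% (mutant) of sites. TFAP2A lay on 87.7% and 94.8% of that class, and antibody U on 45.0%, against 21.6% of all sites.

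Other targets had other leading sites. WT TFAP2A was highest at Zyx, a focal adhesion gene (130), Aco1, the iron regulatory aconitase gene (128), Cdkn2d, a cell cycle inhibitor gene (118), Rap2a (117) and Gatad2a (113). WT Menin was highest at Ncln (35.8), Bcl2l12 with Irf3 (31.2), Snx1 (30.1), Mmachc with Ccdc163 (29.6) and Dnajc17 with Zfyve19 (29.1), whose KMT2D values were no more than 14.2. WT ARID1A was highest at Aox1 (39.5), Nt5dc3 (39.5), Plaur, the urokinase receptor gene (38.3), and Gm14137 (37.2). Aox1 had 2 sites, which shared the same WT ARID1A, UTX, Menin, TFAP2A and H3K4me3 peaks. Of these leading ARID1A genes Nt5dc3, Plaur, Gm14137 and the first Aox1 site also had SMARCC1, at 10.7, 14.3, 17.9 and 11.6. Over all sites, SMARCC1 lay on 9.87%.

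KMT2D summits lay apart from H3K4me3 summits. Among 1233 sites within 1 kb of a start in the promoter table, the KMT2D summit lay a median of 110 bp upstream, with the middle 50% from 194 bp upstream to 1 bp downstream, and 74.5% were upstream. WT UTX and ARID1A summits at the sites lay a median of 127 and 126 bp upstream, Menin 110 bp and TFAP2A 89 bp. SMARCC1 lay farther out, 263 bp upstream. H3K4me3 summits lay the other way, a median of 392 bp downstream in the WT line and 331 bp downstream in the mutant line, with 20.2% and 15% upstream. A peak listed with several summits is placed here by the first listed, which need not be the highest. This bears most on wide peaks such as those of H3K4me3. At gene-end H3K4me3 peaks without KMT2D the median was 346 bp downstream, with 15.6% upstream.

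Measured from each KMT2D summit, the nearest partner was UTX at a median distance of 36.0 bp, followed by ARID1A (49.0 bp), TFAP2A (92.0 bp), SMARCC1 (102 bp), Menin (113 bp) and H3K4me3 (660 bp). UTX in the mutant line lay 40 bp away, and TFAP2A, TFAP2B and SOX10 antibody U of that line 73.0, 68.0 and 57.0 bp. These distances too use the first listed summit of each peak. The plot of summit positions shows the upstream mode of the proteins, a further mode of WT TFAP2A just past the start, and the broad downstream plateau of the mark.

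**Figure D2:**
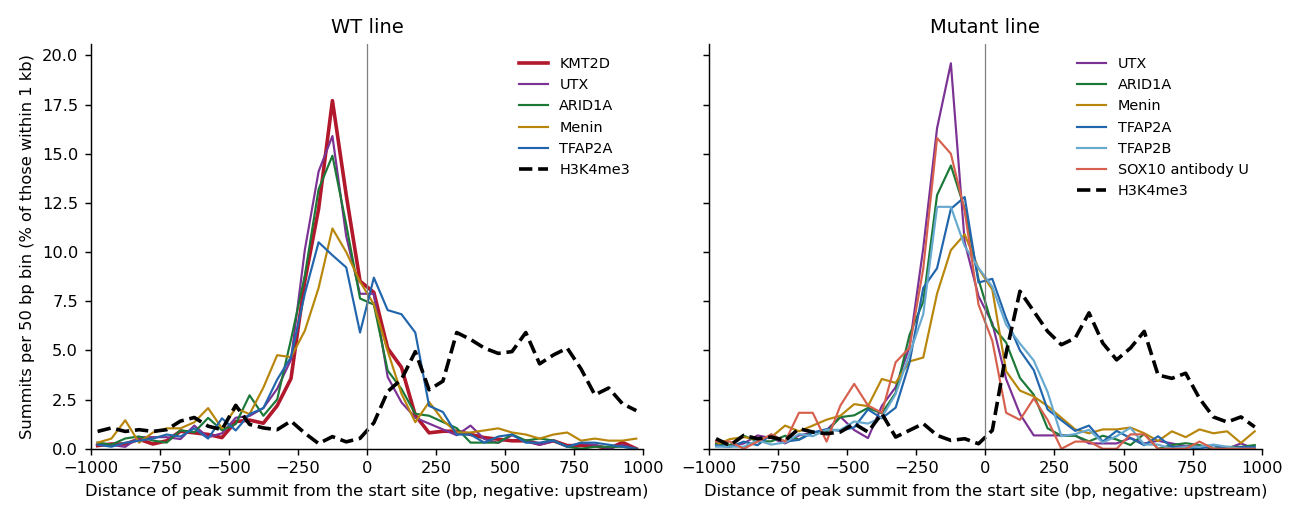
Position of peak summits relative to the start site (bp, negative upstream) at gene-end KMT2D sites with H3K4me3, as the percentage of summits within 1 kb that fall in each 50 bp bin, for the WT line (left) and the mutant line (right). Each line is 1 library, and each peak is placed by its first listed summit. The proteins peak upstream of the start (KMT2D median 110 bp upstream) and H3K4me3 (dashed) lies downstream (WT median 392 bp).

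Set against other H3K4me3 promoters, those with a KMT2D site carried the other proteins more often. Here the unit is the gene-end WT H3K4me3 peak, 1240 with a site and 7547 without KMT2D, and the peaks without KMT2D were given weights so that H3K4me3 width and fold enrichment matched in 5 by 5 classes. UTX covered 80.6% of the peaks with a site and 5.01% of those without (5.87% reweighted, difference 74.7 points, 72.4–77.0, against 16.1% of all 8849). ARID1A covered 74.5% and 14.6% (17.1% reweighted, difference 57.5 points, 54.8–60.1, against 23.5%). TFAP2A covered 77.1% and 36.2% (40.5% reweighted, 36.6 points, 34.0–39.3, against 42.2%). Menin, which reaches most promoters, covered 85.2% and 54.7% (62.9% reweighted, 22.3 points, 20.1–24.5, against 59.1%). SMARCC1 covered 9.60% and 1.46% (1.87% reweighted, 7.72 points, 6.04–9.41, against 2.79%), ARID2 4.52% and 1.05% (3.36 points, 2.17–4.55, against 1.56%), PBRM1 5% and 2.81% (1.80 points, 0.496–3.10, against 3.10%) and BRD9 1.53% and 0.0795% (1.44 points, 0.746–2.12, against 0.305%).

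The same held for the mutant line, which was assayed by separate libraries. Mutant ARID1A covered 83.2% of H3K4me3 peaks with a WT KMT2D site and 23.3% of those without (difference after reweighting 56.8 points, 54.4–59.2, against 32.1% of all). Mutant UTX covered 53.1% and 4.98% (47.0 points, 44.1–49.8, against 12.1%), TFAP2B 72.1% and 30.2% (37.7 points, 34.9–40.4, against 36.3%), and SOX10 antibody U 19.5% and 2.11% (16.8 points, 14.6–19.1, against 4.72%). Antibody T gave 5.32% and 0.292% (4.93 points, 3.67–6.20, against 1.04%). Mutant Menin covered 89.4% and 68.6% (14.3 points, 12.4–16.2, against 71.5%) and mutant TFAP2A 88.5% and 53% (30.4 points, 28.3–32.6, against 58.3%). Mutant ARID2 covered 3.55% and 1.02% (2.43 points, 1.37–3.50, against 1.38%), SMARCC1 1.94% and 0.424% (1.41 points, 0.614–2.20, against 0.701%) and BRD9 0 and 2 peaks (against 0.0226%). For mutant PBRM1 the interval included 0 (0.964 points, -0.307 to 2.24, against 3.35%).

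KMT2D was most frequent on broad H3K4me3 peaks. In 10 equal classes by width its share stayed between 9.60% and 12.0% over the lower 6, then it was 12.8%, 16.8%, 21.4% and 32.2% (29.2–35.4%) in the last 4, the widest class spanning 2706 to 7346 bp. By H3K4me3 fold enrichment it went from 9.83% (8.04–12.0%) in the lowest of 10 classes to 22.5% (19.9–25.4%) in the highest. H3K4me3 peaks with a site had a median width of 1810 bp, against 1382 bp without KMT2D. In the mutant list the overlapping peaks measured 2028 bp and 1538 bp, so the same promoters were wider in both lines. A wider peak has more room to overlap, and its part in these shares was not tested.

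**Figure D3:**
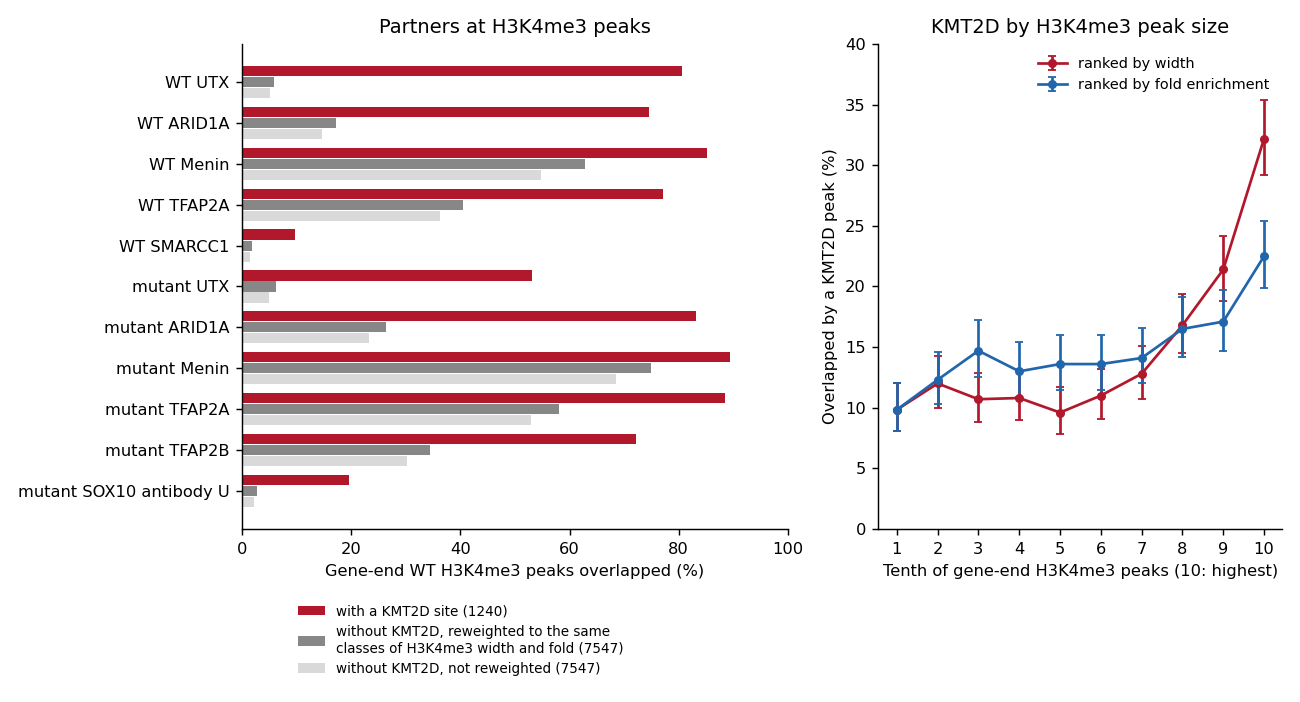
Left: percentage of gene-end WT H3K4me3 peaks overlapped by each target, for peaks with a KMT2D site (red), without KMT2D after reweighting to the same width and fold classes (dark grey), and without KMT2D unweighted (light grey). Right: percentage of gene-end H3K4me3 peaks overlapped by KMT2D in each of 10 equal classes by width or fold enrichment, with 95% Wilson intervals; the widest class reaches 32.2%.

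In the line with the mutant gene H3K4me3 stayed at nearly all of the sites. A mutant H3K4me3 peak overlapped 1439 of 1469 (98.0%, 97.1–98.6%, against 91.7% of all WT H3K4me3 peaks). Of the 30 without one, 23 had a mutant H3K4me3 peak less than 1 kb away, with a median gap of 124 bp over the 30, and at 19 the WT H3K4me3 peak itself still overlapped a mutant peak. The 5 with the highest WT H3K4me3 all had a mutant peak beside them: Hspe1 with Hspd1, the mitochondrial chaperonin genes (WT value 23.7, gap 1 bp), Snx3 (22.5, 70 bp), Cavin2 (20.9, 132 bp), Ppm1d, a phosphatase gene of the p53 pathway (20.1, 62 bp), and Mrps14 (17.7, 13 bp). The 3 widest gaps were those at Cavin4 with Tmeff1 (77276 bp), Acot9 (45941 bp) and Arc (35784 bp), named after their values were seen. Counted per H3K4me3 peak, 98.7% of peaks with a site and 97.8% of those without KMT2D were found again, a difference of 0.332 points after reweighting (-0.344 to 1.01). At gene-end KMT2D peaks without WT H3K4me3, a mutant H3K4me3 peak lay on 55.5% (50.1–60.7%), from the deeper list.

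UTX had the lowest share of sites called again in the mutant line among the 5 targets with over 1000 WT sites. Of 1216 WT UTX sites, 812 had mutant UTX (66.8%, 64.1–69.4%, against 53.3% of all WT UTX peaks), 404 had it in the WT line only and 45 in the mutant line only. The UTX lists were of nearly equal length (9712 and 9707 peaks) and the mutant list was called at 1.58 times the depth. ARID1A was found again at 1058 of 1144 (92.5%, 90.8–93.9%, against 70.9%), Menin at 1103 of 1189 (92.8%, 91.2–94.1%, against 77.0%) and TFAP2A at 1136 of 1159 (98.0%, 97.0–98.7%, against 82.5%). Counted without regard to the WT line, mutant ARID1A lay on 84.9% of the sites (against 84.3% of all KMT2D peaks), Menin on 85.0% (against 36.6%), UTX on 58.3% (against 60.6%), SMARCC1 on 1.43% (against 13.8%), ARID2 on 4.42% (against 2.21%) and PBRM1 on 4.29% (against 1.32%). Gains in the mutant line, from deeper and longer lists, numbered 189 for ARID1A, 146 for Menin and 181 for TFAP2A.

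The weaker sites accounted for most of the missing UTX. In 4 equal classes by WT UTX fold enrichment, mutant UTX was found at 34.2%, 53%, 81.9% and 98.0%, while ARID1A went from 82.5% to 100%, Menin from 81.5% to 98.7% and TFAP2A from 94.1% to 100% over classes of their own fold enrichment. UTX at the sites did not differ clearly from UTX at distal KMT2D sites once matched in 10 classes of fold enrichment: 67.4% and 66.5% of peaks were found again (difference 0.847 points, -2.20 to 3.90). For ARID1A, Menin and TFAP2A the matched difference was positive, 18.3 points for ARID1A (15.5–21.1), 36.9 for Menin (30.2–43.5) and 12.9 for TFAP2A (11.3–14.5). Compared with gene-end H3K4me3 peaks without KMT2D, the matched difference was 7.95 points for ARID1A (5.05–10.8), 1.59 for Menin (0.177–3.01), 1.90 for TFAP2A (1.11–2.68) and 8.44 for UTX (-5.20 to 22.1, with 314 UTX peaks in the comparison). For UTX only 9 of the 10 classes held peaks of both groups, and in those 57.5% and 49.0% were found again.

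SMARCC1, ARID2, PBRM1 and BRD9 gave few sites to compare. SMARCC1 was found again at 12 of 145 (8.28%, 4.80–13.9%, against 16.9%), with the mutant list called at 0.394 times the WT depth and holding 2910 peaks against 11507. When the WT list was cut to the same length, 8 WT sites remained and 4 of them were found again (50%, 21.5–78.5%). ARID2 was found again at 45 of 80 (56.2%, 45.3–66.6%, against 35.6%), PBRM1 at 52 of 71 (73.2%, 61.9–82.1%, against 70.6%) and BRD9 at 0 of 26 (up to 12.9% by the Wilson interval, against 30.5%). Matched in fold enrichment, ARID2 peaks at the sites were found again more often than those at distal sites (28.7 points, 14.8–42.6, over 9 shared classes). Against gene-end H3K4me3 peaks without KMT2D the matched differences were negative with intervals that include 0, at -4.98 points for ARID2 (-20.8 to 10.8, over 8 shared classes), -3.42 for PBRM1 (-14.7 to 7.86) and -2.36 for SMARCC1 (-9.89 to 5.18). SMARCC1 against distal sites gave -2.65 points (-7.43 to 2.13). The mutant BRD9 list held 90 peaks and touched none of the sites (against 0.451% of all KMT2D peaks).

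Sites that had UTX in both lines differed from the 404 WT-only sites beyond UTX. Their median WT UTX fold enrichment was 20.6 against 9.23 and their median KMT2D 17.7 against 8.80. Mutant ARID1A lay on 777 of the 812 (95.7%) and on 294 of the 404 (72.8%), and SOX10 antibody U on 276 (34.0%) and 27 (6.68%). Within the 4 classes of WT UTX the order was the same: in the lowest class mutant UTX was found at 40.2% of sites with mutant ARID1A (34.2–46.5%) and 12.3% of those without (6.37–22.5%), and in the third at 84.8% (80.2–88.5%) and 42.9% (24.5–63.5%). With antibody U the lowest class gave 61.9% (40.9–79.2%, 21 sites) and 32.2% without it (27–37.8%). The part of signal strength within a class was not tested. WT-only UTX was strongest at Ccdc114 (60.8), the second Aox1 site (45.6), 1700011L22Rik (34.2), Pbx4 (31.2) and 9130023H24Rik with Armc5 (28.2). The other Aox1 site had mutant UTX with 33.9. Mutant-only UTX was strongest at Agfg2 (15.7), Trappc9 (11.3), Bcs1l with Zfp142 (10.4), Pqlc3 (9.58) and Eif2b2 (9.58), each of which also had mutant ARID1A. Over all sites, mutant ARID1A lay on 84.9%.

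KMT2D strength in the WT line ordered these differences as well. From the lowest to the highest of 4 equal classes of KMT2D fold enrichment, WT UTX went from 57.3% (52.2–62.3%) to 100% (99.0–100%) and mutant UTX from 26.6% (22.4–31.4%) to 94.3% (91.4–96.2%). WT ARID1A went from 63.0% to 95.4%, SMARCC1 from 4.89% to 19.3% and SOX10 antibody U from 10.3% to 45.0%. WT Menin spanned the narrowest range of these, from 76.1% (71.5–80.2%) to 84.5% (80.4–87.8%), and mutant H3K4me3 was at 96.7% to 98.6% in the 4 classes. KMT2D also chose the sites, and the part of signal strength in calling a peak was not tested.

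**Figure D4:**
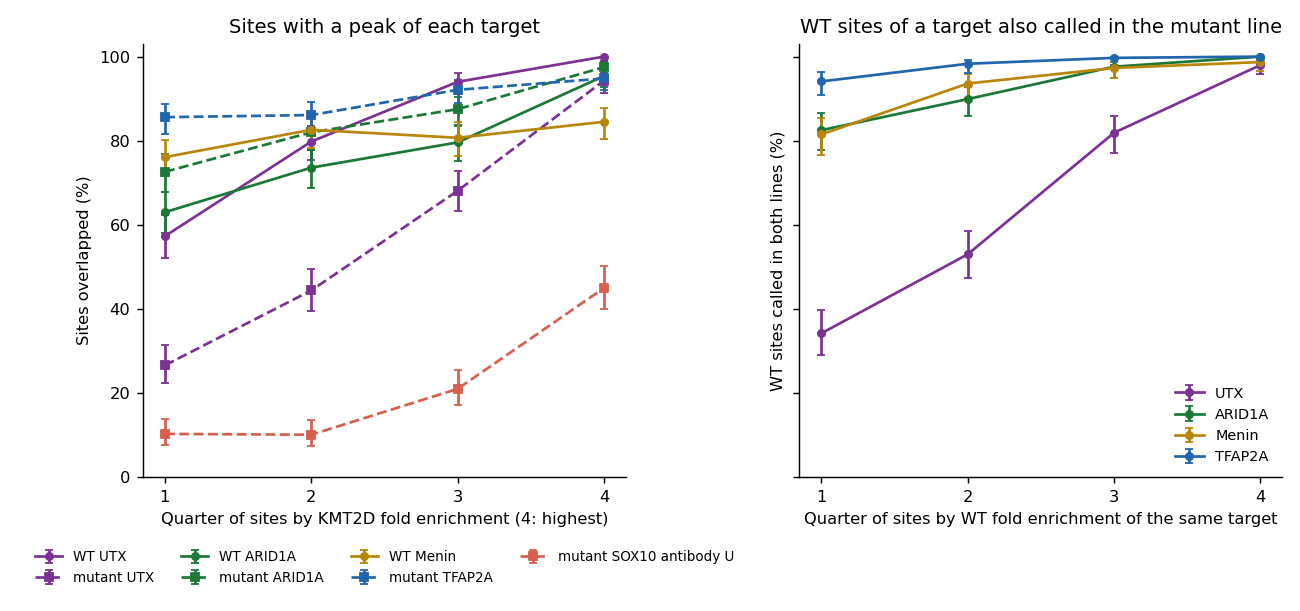
Left: percentage of gene-end KMT2D sites with H3K4me3 overlapped by each target, in 4 equal classes of KMT2D fold enrichment (WT libraries solid, mutant libraries dashed). Right: percentage of WT sites of each target also called in the mutant line, in 4 equal classes of WT fold enrichment of that target; bars are 95% Wilson intervals, and UTX rises from 34.2% to 98.0% while the other 3 targets start above 81%.

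Single losses and gains of the other partners were found at named genes. ARID1A was WT only at Capn10 (10.5), Gatd1 (9.97), Mdm1 (9.97), Cct7 with Pradc1 (9.91) and Uhrf1, a DNA methylation maintenance gene (9.91), all close to the list median of 9.13. ARID1A was mutant only at Myl6b (28.2), Pqlc3 (22.8), Mthfd1, a folate enzyme gene (18.5), Cdk13 (17.8) and Gga1 (17.1). Menin was WT only at Gatad2b (13.9), Sesn2 (13.5), Seh1l (12.9), Tmem170b (12.9) and Cavin4 with Tmeff1 (11.3), and mutant only at Gtdc1 (26.6), Jak2, a cytokine signalling kinase gene (23.2), Ptges3 (16.8), Pxmp4 (14.5) and H2bc23 with H2ac23 (14.0). TFAP2A was WT only at Tshz3 (19.9), Lmntd2 (15.4), Hspbp1 (12.6), Ppp2r5d (10.4) and Arhgef17 (9.43), and mutant only at Tceanc2 with Tmem59 (22.9), Shc1 with Cks1b (20.4), Vdac1 (20.4), Rfxank (20.4) and Bcs1l with Zfp142 (20.4). No mutant library other than H3K4me3 called the Tshz3, Lmntd2 or Arhgef17 site.

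In the mutant line TFAP2A and TFAP2B were common at the sites, while SOX10 was called at fewer of them. TFAP2A lay on 1317 (89.7%, 88.0–91.1%, against 64.3% of all KMT2D peaks) and TFAP2B on 1104 (75.2%, 72.9–77.3%, against 45.1%), 46.6 points more than at distal sites (43.9–49.3). SOX10 antibody U lay on 317 (21.6%, 19.6–23.8%, against 27.3%, or 9.27% when at least 50% of the site had to be covered), -8.95 points relative to distal sites (-11.5 to -6.28), and antibody T on 102 (6.94%, 5.75–8.36%, against 7.32%). TFAP2B was highest at Rap2a (107), Gatad2a (97.8), Neurl4 (95.6), Pwwp3a (94.2) and Gins2 (91.2), and at Rap2a mutant TFAP2A reached 305, the top of its whole list. SOX10 antibody U was highest at Elmo2 (20.9), Esrra with Catsperz (20.8), Itprip (18.1), A930018P22Rik (16.3) and Wbp1 with Ino80b (16.2). Antibody T called 4 of those 5, all but A930018P22Rik, against 6.94% of all sites. The median fold enrichment of antibody U at the sites was 5.95, under the 6.80 of its whole list, whereas TFAP2B had 11.8 against 7.11 and mutant TFAP2A 19.9 against 8.48.

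Promoter letters separated the sites from other H3K4me3 promoters. In windows of 250 bases before to 50 after the start, a CCAAT box was present in 672 of 1224 promoters with a site (54.9%, 52.1–57.7%), in 37.4% (36.2–38.7%) of 5534 promoters of gene-end H3K4me3 peaks without KMT2D, and in 38.2% of all 21263 promoters. GC boxes were present in 80% (77.6–82.1%), 69.1% (67.9–70.3%) and 46.2%. The ETS match went the other way, at 15.2% (13.3–17.3%), 22.1% (21.0–23.2%) and 11.6%, as did the E-box at 8.01%, 11.4% and 7.84%. The TFAP2 match was present in 28.8% (26.4–31.4%), 26.5% (25.4–27.7%) and 19.9%. A SOX match (ACAAAG) was present in 8.91%, 12.7% and 16.8%, an AP-1 match (TGANTCA) in 4.08%, 3.54% and 6.99%, a CRE (TGACGTCA) in 2.37%, 4.10% and 2.23%, and YY1 (AAGATGGCG) in 3.10%, 3.76% and 1.83%. Median GC content of the windows was 64.0%, 61.7% and 56.3%, and its part in these shares was not tested. The 188 promoters of gene-end KMT2D peaks without H3K4me3 had the CCAAT box in 58.0% (50.8–64.8%), an interval that overlaps that of the sites.

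The CCAAT box was more frequent at the sites with more KMT2D, at 47.2% (41.8–52.8%) of promoters in the lowest of the 4 classes of KMT2D fold enrichment and 66.9% (61.4–71.9%) in the highest. The promoters with SOX10 antibody U had it in 67% (61.3–72.3%), against 51.7% (48.5–54.8%) without, while their SOX match was at 11.4% (8.12–15.7%) and 8.12% (6.56–10.0%). The TFAP2 match followed the factor: 33.2% (30.3–36.2%) with WT TFAP2A and 13.3% (9.73–17.9%) without, and 34.5% (31.5–37.6%) with mutant TFAP2B and 11.7% (8.54–15.8%) without. An AP-1 match was present at 10.4% (6.18–17%) of 125 promoters with SMARCC1 and 3.43% (2.51–4.67%) of 1108 without.

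Among the gene groups, signal-response and clock genes had the largest shares with a site. Of all 21900 protein-coding genes 8.14% had a site, and of the 9639 with a gene-end H3K4me3 peak or a site 18.5%. The counts of H3K4me3 genes in each group below were made in the same way. Immediate early and AP-1 genes, which respond within minutes to growth factors, had sites at 10 of the 17 with gene-end H3K4me3: Fos, Fosl2, Jun, Junb, Atf3, Atf4, Egr1, Klf2, Klf4 and Klf10. KMT2D ran from 4.40 (Klf4) to 26.8 (Egr1). All 10 had mutant H3K4me3, 8 had WT UTX and 5 had UTX in both lines, close to the shares over all sites (98.0%, 82.8% and 812 of 1469). Klf10 had TFAP2A with 49.3 (WT; median over the sites 16.0) and 131 (mutant; median 19.9). Atf4, a stress factor gene, had neither Menin nor TFAP2A in either line. The group listed as MAPK feedback genes had sites at 7 of 12: Spred3 (26.1), Dusp10 (21.2), Etv5 (15.6), Spred2 (9.35), Spry2 (8.60), Dusp1 (8.32) and Ccnd1 (7.20). All 7 had WT UTX, against 82.8% of all sites. Dusp1 and Ccnd1 lacked it in the mutant line, where UTX was found again at 66.8% of all WT UTX sites.

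Circadian clock genes had sites at 7 of 13 with H3K4me3, and with high KMT2D: Per1 (55.8, chr11:69094817-69095322) and Nr1d1 (54.8, chr11:98775257-98776027), then Dbp (35.9), Per2 (29.6), Bhlhe40 (20.8), Ciart (18) and Cry2 (9.46). Per1, Per2, Cry2 and Ciart encode repressors of the clock, Nr1d1 the receptor REV-ERB alpha, and Dbp an output factor. All 7 had WT UTX, from 65.1 (Per1) to 7.98 (Cry2), and 6 had it in both lines, all but Cry2. Over all sites, 82.8% had WT UTX and 812 of 1469 had it in both lines. WT Menin was called at 1 of the 7 (Ciart, 3.54), against 80.9% of all sites. Mutant Menin, from the deeper list, was called at Per1 (6.14), Dbp (5.97), Bhlhe40 (4.82) and Nr1d1 (3.68), against 85.0% of all sites. At Nr1d1 the mutant SOX10 lists had 13.6 (antibody U) and 6.16 (antibody T). When the KMT2D summit had to lie inside the H3K4me3 peak, or at least 50% of the site had to be covered, 3 clock genes had a site.

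Among genes of the chromatin machinery, COMPASS genes had a share of 35.7%, while SWI/SNF (20%), Polycomb (18.2%), Mediator (17.2%) and RNA polymerase II genes (18.2%) lay close to the 18.5% of all H3K4me3 genes. Of COMPASS genes 5 of 14 with H3K4me3 had a site: Men1 (22.6), Kmt2b (21.9), Kmt2a (17.7), Setd1b with Rhof (8.60) and Setd1a (5.80), all with WT UTX and all but Setd1a with mutant UTX. Over all sites, WT UTX lay on 82.8% and mutant UTX on 58.3%. SWI/SNF genes had 5 of 25: Bcl7c (16.7), Bcl7b (14.9), Smarca4 (12.1), Arid1a (11.3) and Smarcd2 (10.7), or 2 genes when the KMT2D summit had to lie inside the H3K4me3 peak. Polycomb genes had 4 of 22: Rbbp4 (17.3), Suz12 (7.54), Jarid2 (5.10) and Ezh2 (4.40), the last a H3K27 methyltransferase gene without UTX at its site in either line. With a −log10 q of at least 5 in every list, 2 Polycomb genes had a site. Mediator genes had 5 of 29, led by Med29 (29.6) and Cdk19 (27.5), and RNA polymerase II subunits 2 of 11 (Polr2a, and Polr2h with Clcn2), or 1 under each of these stricter rules.

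Housekeeping groups were nearer to or under the 18.5% of all H3K4me3 genes. Cytosolic ribosomal protein genes had sites at 7 of 48 (14.6%), with Rps19 far above the rest (68.9 against 15.6 at Rpl10 and less), nuclear oxidative phosphorylation subunits at 6 of 54 (11.1%), proteasome subunits at 2 of 29 (6.90%) and glycolysis at 2 of 15 (13.3%; Pkm, 22.4, and Eno1, 15.5). Stricter rules left 3 or 4 ribosomal protein genes, and 1 glycolysis gene when at least 50% of the site had to be covered. At Rps19 the WT UTX value was 88.1 (median over the sites 14.5) and the mutant value 23.5 (median 9.56). The 2 values come from different lists and are not set against each other. Genes of p53 and its targets had 4 of 14 (28.6%, or 2 genes with 50% coverage): Rrm2b (27.6), Sesn1 with Cep57l1 (27.5), Trp53 with Wrap53 (8.32) and Sesn2 (4.41). The site shared by Sesn1 and Cep57l1, whose end is the nearer, had WT TFAP2A of 91.5.

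Cell state genes had sites in small numbers, at shares on both sides of the 18.5% of all H3K4me3 genes. Pigment cell genes had 1 of 7 (14.3%), at a site (26.7, chr10:128695903-128696608) that lay nearest to Rab5b, 132 bp from its end, and within 1 kb of Pmel, the melanosome fibril gene. With a limit of 0.5 kb no pigment gene had a site. The Rab5b and Pmel site had ARID2 in both lines (13.5 WT and 18.6 mutant, with medians over the sites of 7.24 and 11.8). It had UTX in both as well (39.4 and 13.4, with medians of 14.5 and 9.56). Mesenchymal state genes had 3 of 16 (18.8%): Vim (22.4), Jun (16.3) and Fn1 (5.10). At Vim, the intermediate filament gene, WT SMARCC1 was 12.4 (median over the sites 5.37). Mutant SMARCC1 was 5.07 there (median 3.86), from the list called at 0.394 times the WT depth. IGF signalling genes had 3 of 12 (25%): Pik3r1 (19.8), Mtor (11.4) and Pik3r2 (3.70). Of the 2 fibroblast markers with gene-end H3K4me3, Col1a1 had a site (8.60), with UTX in the WT line only, and it was lost with a limit of 0.5 kb or 50% coverage. Gene-end H3K4me3 was found at 2 keratinocyte, 0 blood cell, 1 endothelial and 2 silent tissue-restricted genes, none with a site, and these are too few to set against 18.5%. The map of named sites shows the libraries at each of the leading groups.

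**Figure D5:**
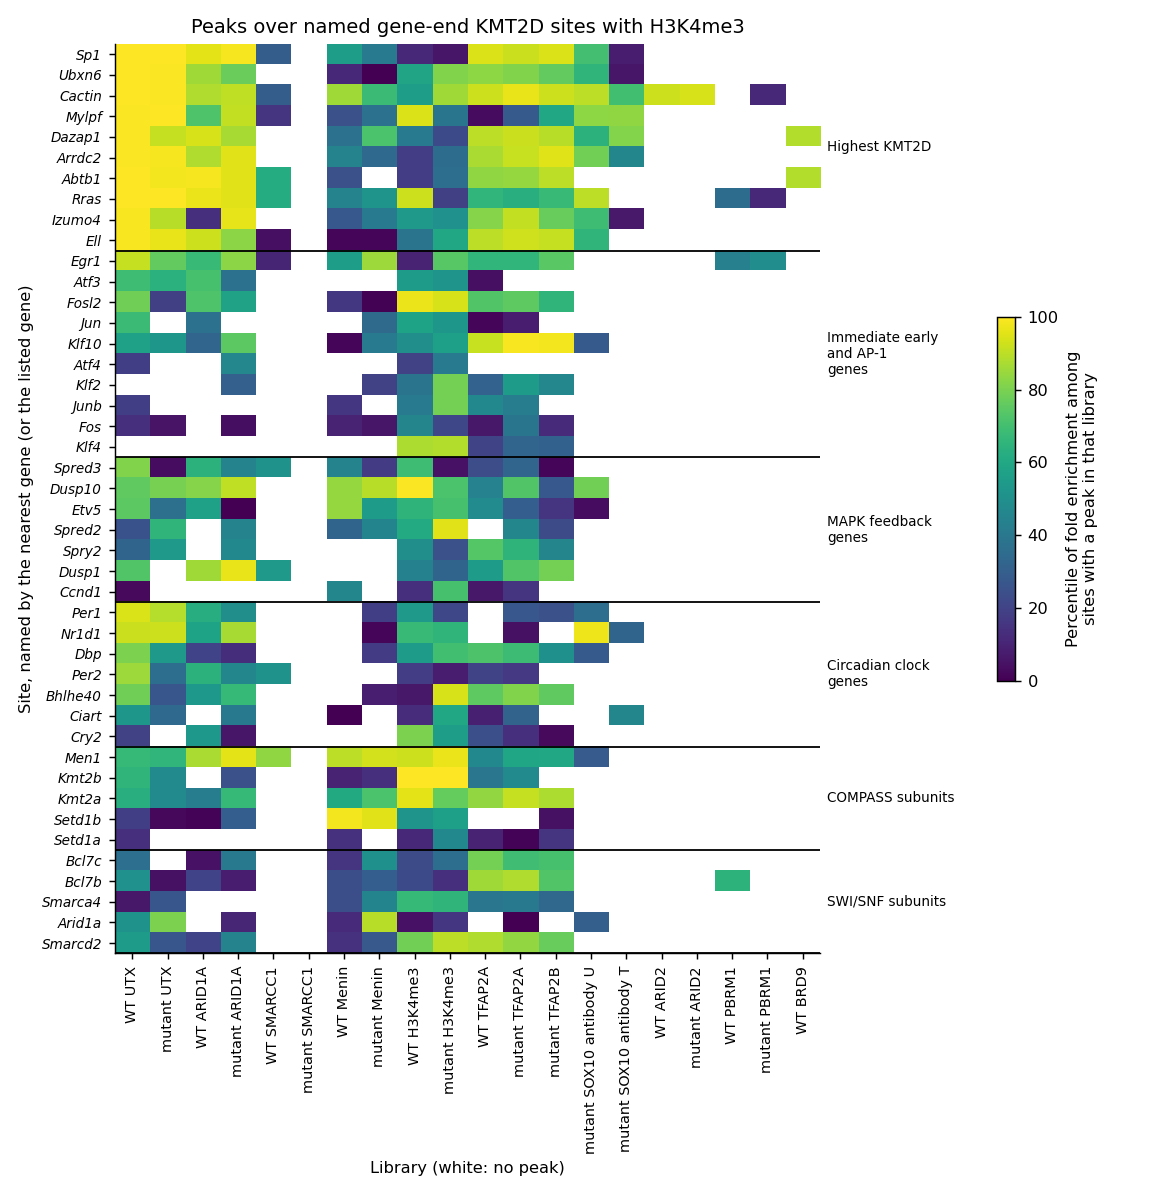
Peaks at the 10 sites with the highest KMT2D and at the sites of 5 gene groups (rows), over the other libraries (columns), coloured by the percentile of the site's fold enrichment among all sites with a peak in that library; white means no peak. The 10 highest KMT2D sites are at the top of the WT UTX column. The clock genes are almost empty for WT Menin, and more of them have mutant Menin.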

How the data were processed

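Peak lists of 22 CUT&RUN libraries were used. Per the submitters' processing notes, the authors used mm10, with MACS2 for peaks, Bowtie2, and FastQC and MultiQC. Versions, parameters and the control of the peak calling are not given in the sources used here. Every deposited list gives, per summit, a score, the fold enrichment (a linear ratio) and the −log10 p and −log10 q values computed by the authors' peak caller. Lists were called per library.

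From these, rows of 1 list with the same start and end were reduced to 1 peak by keeping the first row. The summit and fold enrichment of such a peak are those of that row, which need not be the highest. Overlap was counted from 1 bp. Gene ends came from RefSeq (GRCm38.p6) for 21900 protein-coding genes, with strand known for 17492. A peak counted as at a gene end when its summit lay within 1 kb of one. Fragments at summits and the depth used by the caller were reconstructed from the deposited fold enrichment and −log10 p values. Comparisons of shares were reweighted over up to 10 classes of fold enrichment, or over 5 by 5 classes of H3K4me3 width and fold enrichment. Only classes that held peaks of both groups were used. The overlap and reweighting steps were tested on simulated data. Tables were handled with pandas 2.3.3 and NumPy 2.4.6 in Python 3.11.15, shares with SciPy 1.17.1 and plots with Matplotlib 3.10.9.

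Intervals are 95% Wilson intervals for shares and Newcombe intervals for unweighted differences. For reweighted or matched differences they are 95% normal-approximation intervals from the binomial standard error. The sites and gene lists were chosen with earlier results of these data known. Named sites were the 10 highest by KMT2D, the 5 highest by WT UTX, ARID1A, Menin and TFAP2A and by mutant TFAP2B and SOX10 antibody U, the 5 strongest found in 1 line only for UTX, ARID1A, Menin, TFAP2A and H3K4me3, the 5 highest by KMT2D with neither UTX nor ARID1A, and members of 22 gene lists, of which the result of 1 is not reported here. Promoters were printed for 4 of the 8 sites selected for sequence, those with the KMT2D summit in the window. Alternatives were other distances, overlap rules, a stricter q value, equal list lengths and leaving out sites called in at least 15 libraries. The IgG libraries were not analysed here.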

Additional observations from a re-analysis of the deposited data

How the results depend on the processing

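The number of sites, 1469 as reported, ran from 1077 (KMT2D summit inside the H3K4me3 peak) to 1685 (gene ends of 2.5 kb). Of 84 recomputed shares, 45 stayed within the counting interval of the reported value and 39 moved. Of 132 counts of gene lists, an alternative chosen after seeing the data, 114 stayed within 1.5 times the reported count and 18 moved. With a −log10 q of at least 5 in every list, the share of sites with WT UTX was 85.6%, ARID1A 73.6%, Menin 72.1%, TFAP2A 76.3%, SMARCC1 6.10% and SOX10 antibody U 15.1%, and the share found again in the mutant line was 57.4% for UTX, 88.4% for ARID1A and 87.6% for Menin. Polycomb genes with a site then numbered 2, RNA polymerase II genes 1 and ribosomal protein genes 3. With at least 50% of the site covered, the shares were UTX 79.2%, ARID1A 72.1%, Menin 78.3%, TFAP2A 74.2%, SMARCC1 5.56%, TFAP2B 64.4% and SOX10 antibody U 9.27%, and those found again H3K4me3 94.7%, UTX 49.9%, ARID1A 88.2%, Menin 89.9% and TFAP2A 94.9%. The gene counts were RNA polymerase II 1, glycolysis 1, ribosomal proteins 4, p53 and targets 2, clock 3 and fibroblast markers 0. With the KMT2D summit inside the other peak, the shares were UTX 78.8%, ARID1A 75%, TFAP2A 73.9%, SMARCC1 6.59%, TFAP2B 66.5% and SOX10 antibody U 14.9%, those found again H3K4me3 93.8%, UTX 57.8%, ARID1A 89.7%, Menin 90% and TFAP2A 96.0%, and the gene counts SWI/SNF 2, RNA polymerase II 1, ribosomal proteins 4 and clock 3. Without sites called in at least 15 libraries, SMARCC1 was at 8.36% and SOX10 antibody U at 19.1%. With gene ends widened to 2.5 kb, H3K4me3 was found again at 97.0%, and pigment genes with a site numbered 2, blood cell markers 1 and silent genes 1. With 0.5 kb, pigment genes and fibroblast markers each numbered 0. With the longer list cut to the length of the shorter, ARID1A was found again at 88.5%, Menin at 88.6%, TFAP2A at 92.8% and SMARCC1 at 50%, from 8 sites, above the 16.9% of the uncut list whereas the reported 8.28% lay below it. The cause of these movements was not tested. No paired analysis was possible because there was 1 library per line and target.

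With 1 library per line and target, neither biological nor technical spread is known, and intervals cover counting error only. Effects of line and of the mutation cannot be told apart. The weakest KMT2D sites rest on 4 fragments. The lists of ARID2, PBRM1 and BRD9 are short, so a site without their peaks was not detectable at this depth and is not shown to lack them.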
